A study of Papio with 24 samples.

Results

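The genes described here are 35 genes of DNA replication and mitosis, read on bead arrays in adipose-derived stem cells of 8 fetal baboons. They were chosen by symbol: 15 act in DNA replication or in making its nucleotides, and 20 act in mitosis. All 35 were on the array, out of 18852 genes with a symbol, and each was represented by the probe with the highest mean over the 24 arrays. A probe entered the tests when its deposited detection p was below 0.05 on at least 4 arrays. By that rule 30 genes were tested, 13 of replication and 17 of mitosis.

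Cells were obtained from 3 fat depots of each fetus, the omental fat inside the abdomen and the subcutaneous abdominal and subcutaneous femoral fat, which gives 24 arrays. In the control group (fetuses control_9017, control_9087, control_8011 and control_8009) the mother ate ad libitum. In the restricted group (fetuses restricted_9085, restricted_2820, restricted_9075 and restricted_9073) the mother received a diet cut by 30% during the whole of pregnancy. All fetuses were taken at 165 days of gestation, where term is 184 days; control_9017 and restricted_9085 were male and the other 6 female. The cells of both groups had been released with collagenase, expanded in serum, frozen, thawed and collected once confluent, and each array read RNA pooled from 3 wells of 1 fetus and depot. The data therefore describe cultured cells at confluence and not the fat itself.

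Before a cell copies its DNA, CDC6 and CDT1 load rings of the MCM2 to MCM7 proteins onto replication origins, and these rings later unwind the DNA with the GINS complex. Nucleotide supply depends on thymidylate synthase (TYMS), thymidine kinase (TK1) and ribonucleotide reductase (RRM1 and RRM2), and PCNA is the clamp that holds polymerases on DNA. In mitosis, CDK1 with its cyclins (CCNA2, CCNB1, CCNB2) drives entry, Aurora and Polo kinases build the spindle, BUB1 and BUB1B guard the attachment of chromosomes, and CDC20 and UBE2C start their separation. Transcripts of the first set generally peak earlier in the cell cycle than those of the second, and both are low in resting cells.

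Values are log2 intensities after background correction and quantile normalisation, so a difference of 1 is a doubling on that scale; the added offset shrinks differences of dim probes. The probes were designed on human sequence, so the level of one gene is not set against that of another. The arrays detected between 13102 and 14994 of 48803 probes, and they correlated with the other arrays of their group at a mean r of 0.970 to 0.989, lowest in the abdominal cells of restricted_2820. Mesenchymal markers (NT5E, ENG, CD44, ITGB1, PDGFRA, PDGFRB, ALCAM and COL1A1) were tested in 8 of 10 cases and THY1 was detected on no array; markers of other cell types are given beside the results they move with. Of the 35 genes, MCM10 (a helicase activator) was detected on 1 array, and RRM2, the proliferation marker MKI67, CCNB1 and the kinetochore gene CENPF on none. RRM2 lay between 4.28 and 4.50, MKI67 between 4.36 and 4.63 and CCNB1 between 4.30 and 4.55 on all 24 arrays. For these genes the probes gave no level above background, which sets no limit on the transcript in baboon cells. Of the 30 tested genes, 27 were detected on all 24 arrays, CCNB2 on 23, and CDC6 and PCNA on 22.

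**Figure D1:**
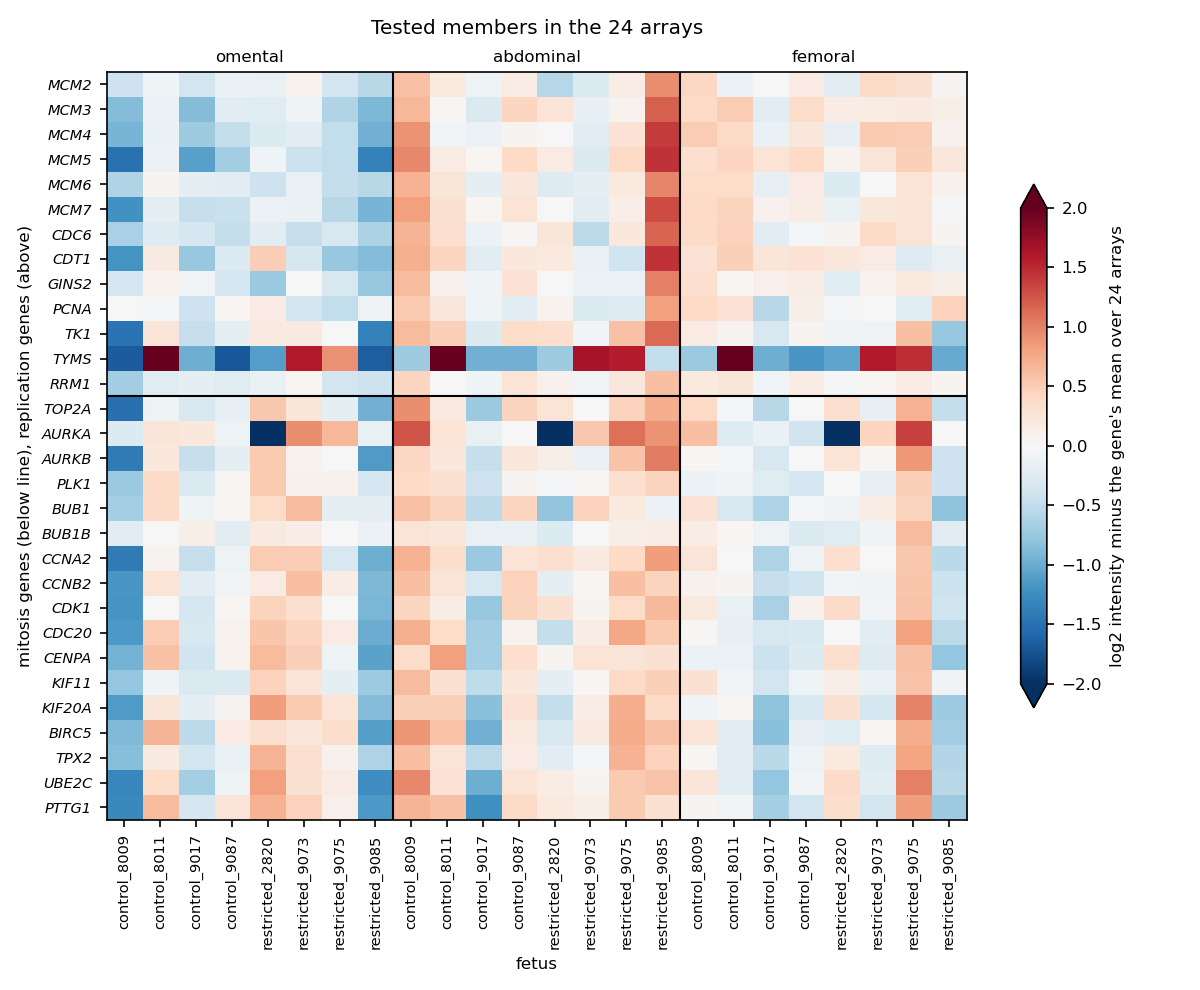
Log2 intensity of the 30 tested genes on each of the 24 arrays, minus the mean of that gene over all arrays, with replication genes above the black line and mitosis genes below it; columns are fetuses within each depot. The omental arrays of control_8009 and restricted_9085 are pale to dark blue in nearly all genes and their abdominal arrays are mostly red, while TYMS and AURKA follow the fetus across depots.

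The first comparison set omental cells against the subcutaneous abdominal cells of the same 8 fetuses. Depot tests took diet as covariate but no term for the fetus, except where a block is named. Their SEs and p-values thus treat arrays of 1 fetus as independent. The replication genes were lower in omental cells: 6 of 13 passed the test (MCM3, MCM4, MCM5, MCM7, CDC6 and RRM1), and all 13 had a negative difference. Over all 16933 probes tested, 4.62% were called, 2.49% higher and 2.13% lower in omental cells. The median difference of the replication genes was -0.67, against 0.0015 for all probes. None of the 17 mitosis genes passed the test, though all 17 differences were negative, with a median of -0.31 and a range from -0.59 to -0.039. In these bulk arrays, fewer cells in S phase and less transcript per cell cannot be told apart.

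MCM5, a subunit of the helicase ring, ran from 5.43 over a median of 6.33 to 6.83 in omental cells and from 6.64 over 7.20 to 8.36 in abdominal cells. The ranges overlapped, but each of the 8 fetuses had less MCM5 signal in its omental cells. The difference was -1.13 ± 0.25 (SE, 8 against 8 arrays), a 2.19-fold lower level, with an adjusted p of 0.0171 in limma after Benjamini-Hochberg adjustment over all tested probes. MCM7 ran from 8.17 over 8.92 to 9.25 in omental and from 9.16 over 9.58 to 10.68 in abdominal cells, a difference of -0.84 ± 0.21 (SE; adjusted p = 0.0316). A second MCM7 probe differed by -0.78 with an adjusted p of 0.0556, just outside the threshold. MCM4 differed by -0.81 ± 0.22 (SE; adjusted p = 0.0446) and MCM3 by -0.77 ± 0.20 (SE; adjusted p = 0.0386). Each of these 3 genes was lower in 7 of 8 fetuses, so 1 fetus went the other way.

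CDC6, which loads the MCM rings, ran from 4.81 over 5.06 to 5.23 in omental cells and from 4.92 over 5.67 to 6.61 in abdominal cells. It was 1.59-fold lower (-0.67 ± 0.18, SE; adjusted p = 0.0446). The size for this dim probe depended on the offset and background step, at -0.38 with an offset of 50 (adjusted p = 0.0707) and -0.98 without background correction (0.0678). That last setting raised values below 16 to 16 before log2, and the deposited intensities were already background-subtracted. RRM1, the large subunit of ribonucleotide reductase, ran from 9.65 over 10.10 to 10.39 and from 10.26 over 10.50 to 10.95, and was 1.39-fold lower (-0.47 ± 0.11, SE; adjusted p = 0.0230). Both were lower in 7 of 8 fetuses. TYMS was lower in omental cells of all 8 fetuses, as MCM5 was, yet its difference of -0.52 ± 0.70 (SE) had an adjusted p of 0.799, and the fetuses lay far apart. A difference below 0 in all 8 fetuses was found for these 2 of 30 genes and for 4.19% of all probes. With the fetus as a block, which the shared animals allow, 1629 probes were called in place of 782. TYMS then passed (adjusted p = 0.0276), whereas MCM4 (0.0660) and MCM7 (0.0543) did not.

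The nearest mitosis genes were TOP2A, the topoisomerase that untangles sister chromatids, at -0.59 ± 0.26 (SE; adjusted p = 0.262), the cyclin gene CCNA2 at -0.57 ± 0.26 (0.270) and the Aurora kinase gene AURKB at -0.55 ± 0.25 (0.283). CCNA2 ran from 6.71 over 7.92 to 8.65 in omental and from 7.40 over 8.48 to 8.98 in abdominal cells. AURKB ran from 5.74 over 7.05 to 7.67 and from 6.70 over 7.37 to 8.17. For both, the omental values reached lower while the upper ends lay closer together.

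The number of calls moved with single fetuses, for the members and for all probes. The fetuses control_8009 and restricted_9085 had the lowest omental arrays, with the lowest value in 7 and 4 of 13 replication genes. In abdominal cells, restricted_9085 had the highest value in 12 of 13 replication genes, and control_8009 had the highest value in 9 of 17 mitosis genes. Within control_8009 the median omental difference was -1.33 for replication and -1.61 for mitosis genes, and within restricted_9085 it was -1.80 and -1.38. Without control_8009, without restricted_9085 or without control_9087, 0 of the members passed, while the share of all probes called was 2.04%, 2.49% and 2.55%. Over all 8 such omissions the count lay between 0 and 6, where 2.04% to 5.47% of all probes were called. The differences lay between -1.27 and -0.89 for MCM5, -0.97 and -0.64 for MCM7 and -0.55 and -0.38 for RRM1. Without both control_8009 and restricted_9085, an alternative chosen after seeing the data, 0.874% of all probes were called, MCM5 stood at -0.64 (adjusted p = 0.141), CDC6 at -0.37 (0.299) and RRM1 at -0.27 (0.243), and the mitosis median turned to 0.070. The abdominal array of control_8009 also carried the highest summed level of the 4 tested skeletal muscle markers (MYF5, PAX7, MYH3 and ACTC1), 2297 in linear intensity. The femoral and omental arrays reached at most 254 and 197, and MYOD1 was detected on no array; the part of such cells in the result was not tested.

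Markers of other cell types differed between the same cells. The 5 tested mesothelial markers (UPK3B, LRRN4, CALB2, KRT19 and WT1) summed to 401 to 1173 in omental and 162 to 456 in abdominal cells, with MSLN, KRT8 and KRT18 on no array, and WT1 was called higher in omental cells, at 1.69. The 5 tested endothelial markers summed to 130 to 237 in omental and 202 to 326 in abdominal cells, with CDH5 on no array, and TEK was called lower, at -2.04. The smooth muscle genes CNN1 and MYH11 were higher in omental cells, at 1.26 and 1.53, and the mesenchymal marker CD44 was lower, at -1.49. The part of these differences in the result was not tested.

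Against the subcutaneous femoral cells of the same fetuses, more of the replication genes passed the test. In omental cells 9 of 13 were lower: MCM2, MCM3, MCM4, MCM5, MCM6, MCM7, CDC6, GINS2 and RRM1. Of all probes 10.9% were called, and 5.60% of all probes were called lower in omental cells. All 13 replication genes had negative differences, with a median of -0.42 against 0.0038 over all probes. The mitosis genes had no such shift: 0 of 17 passed, 8 differences were positive and 9 negative, and the median was -0.0044. This comparison uses the same omental arrays as the first, so the 2 are not independent.

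MCM5 in femoral cells ran from 6.99 over 7.23 to 7.40, so even the highest omental value of 6.83 lay below the lowest femoral one. The difference was -1.03 ± 0.18 (SE), a 2.04-fold lower level, with an adjusted p of 0.00122. CDC6 had the smallest adjusted p of the members, 0.000883, at -0.59 ± 0.10 (SE), and ran from 5.23 over 5.61 to 5.90 in femoral cells. This dim probe was detected on 3 of 4 control and 3 of 4 restricted omental arrays, and on 4 of 4 in every other group. Its highest omental value and lowest femoral value were equal to 2 decimals. Over fetuses MCM5 had an SD of 0.129 in femoral and 0.547 in abdominal cells (n = 8 each).

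The other helicase subunits were MCM4 at -0.76 ± 0.14 (SE; adjusted p = 0.00196), MCM3 at -0.69 ± 0.14 (0.00403), MCM7 at -0.68 ± 0.15 (0.00582), MCM6 at -0.42 ± 0.11 (0.0163) and MCM2 at -0.37 ± 0.11 (0.0338). The second MCM7 probe was also lower, at -0.61 (adjusted p = 0.0217). RRM1 was lower, at -0.38 ± 0.09 (SE; adjusted p = 0.00892), and so was GINS2, a subunit of the GINS complex, at -0.41 ± 0.11 (0.0271). MCM3, MCM4, MCM5, MCM6 and CDC6 were lower in 8 of 8 fetuses, a pattern found downward for 5.66% of all probes.

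The 4 replication genes that did not pass were CDT1 at -0.60 ± 0.20 (SE; adjusted p = 0.0745), TYMS at -0.33 ± 0.70 (0.868), TK1 at -0.32 ± 0.26 (0.557) and PCNA at -0.20 ± 0.14 (0.457). CDT1, the partner of CDC6 in loading, ran from 4.87 over 5.52 to 6.56 in omental and from 5.82 over 6.29 to 6.54 in femoral cells, and passed with the fetus as a block (adjusted p = 0.0147). The other PCNA probes differed by 0.018 and -0.17 without passing, so the probes of this gene did not share a direction. Among mitosis genes the smallest p-values belonged to AURKB at -0.36 ± 0.24 (SE; adjusted p = 0.447), the spindle motor gene KIF11 at -0.24 ± 0.16 (0.452) and TOP2A at -0.33 ± 0.25.

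Leaving out 1 fetus at a time kept between 6 and 10 calls. The share of all probes called then ran from 7.74%, without control_8009, to 12.9%, without restricted_2820. MCM2, GINS2 and MCM6 were the genes whose calls were lost in those fits. Without both control_8009 and restricted_9085, 4 calls were left, MCM5, MCM4, MCM7 and CDC6, whereas MCM3 stood at -0.54 (adjusted p = 0.0673) and RRM1 at -0.28 (0.0895). The share of all probes called was then 5.22%. In femoral cells the mesothelial markers summed to 125 to 228 and the endothelial markers to 246 to 400. Against femoral cells WT1 (1.89), LRRN4, CALB2 and KRT19 were called higher in omental cells, as were CNN1 (1.54) and DES, and TEK (-2.38), CD44 (-1.62), PDGFRB and ALCAM were called lower. Their part in the result was not tested.

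**Figure D2:**
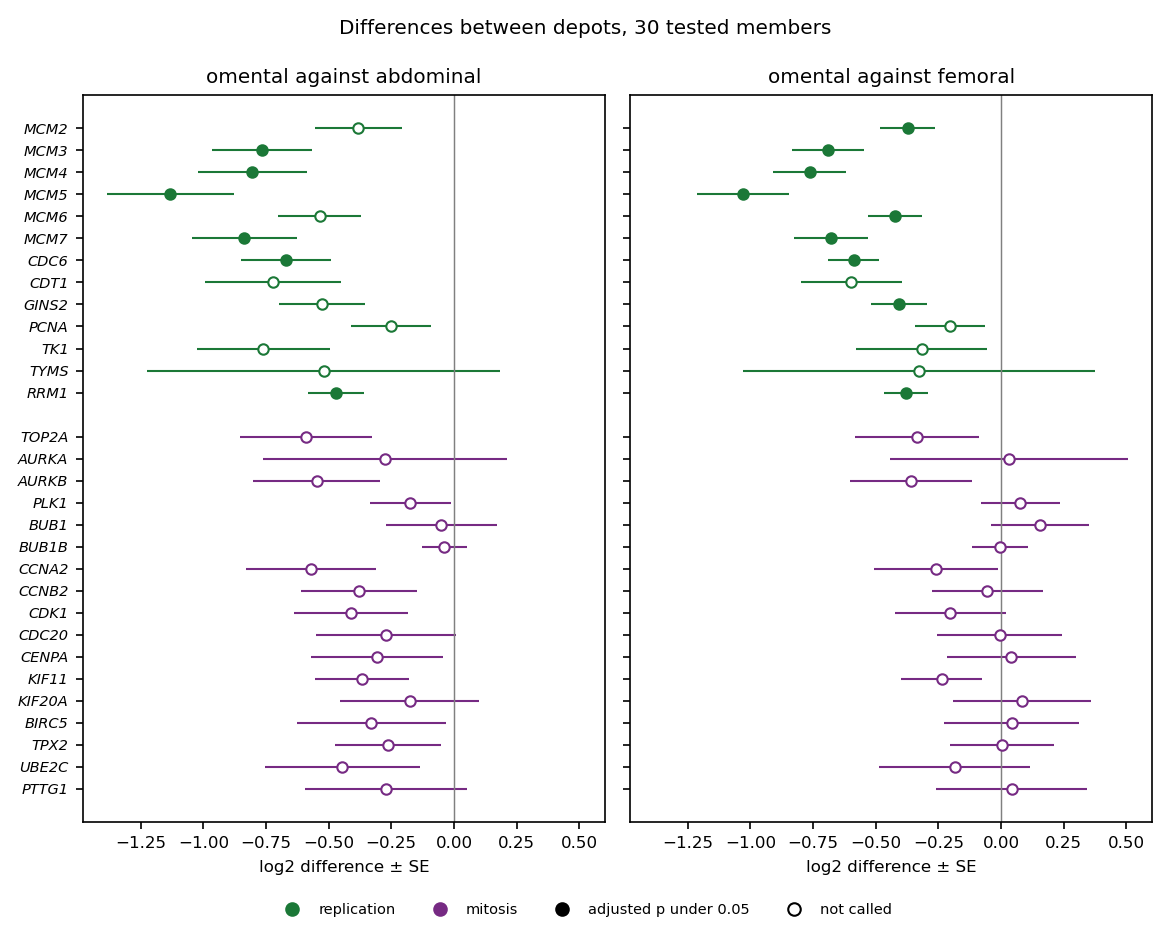
Log2 difference of omental against abdominal cells (left) and omental against femoral cells (right) for the 30 tested genes, with bars of 1 SE; filled points have an adjusted p under 0.05. Replication genes (green) lie left of 0 in both panels, with 6 and 9 filled points, and mitosis genes (purple) lie left of 0 in the first panel and around 0 in the second.

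The fetuses differed in how mitosis genes compared between depots. Against abdominal cells, all 17 mitosis genes were lower in the omental cells of restricted_9085, control_9087, restricted_9075 and control_8009, and all 17 were higher in those of restricted_2820 and restricted_9073. In control_9017, 16 of 17 were higher, and in control_8011, 6 were higher and 11 lower. Against femoral cells, 17 of 17 were higher in restricted_2820 and restricted_9073 and 17 of 17 lower in restricted_9075 and control_8009. The other 4 were mixed: 14 of 17 were higher in control_9017 and control_8011, 10 in control_9087 and 3 in restricted_9085. The direction of most mitosis genes thus differed between fetuses. Of the 13 replication genes, between 8 and 13 were lower in omental than in femoral cells in each fetus. Against abdominal cells between 10 and 13 were lower in 7 fetuses, whereas in restricted_9073 4 were lower and 9 higher, with a median of 0.074.

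The mean of the 13 replication genes minus that of the 17 mitosis genes was taken on the same array. A log2 shift of equal size in both sets cancels in this gap, whereas a shared shift of unequal size does not. This gap was lower in omental than in abdominal cells in 7 of 8 fetuses, by a median of -0.24, with control_8009 as the exception at 0.17. Against femoral cells it was lower in 7 of 8 fetuses, by a median of -0.54, with restricted_9075 at 0.014. Between abdominal and femoral cells it was lower in 4 fetuses and higher in 4. It is given as a description with no test, since the genes were chosen with earlier results known.

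Array by array, MCM2 in omental cells was at 5.16, 5.40, 5.44 and 5.12 in control_9017, control_9087, control_8011 and control_8009 and at 4.97, 5.38, 5.15 and 5.60 in restricted_9085, restricted_2820, restricted_9075 and restricted_9073. In the same order it was at 5.43, 5.68, 5.72 and 6.12 and at 6.46, 4.97, 5.67 and 5.23 in abdominal cells. In femoral cells it was at 5.52, 5.69, 5.41 and 5.94 and at 5.58, 5.32, 5.84 and 5.91. MCM2 in abdominal cells thus held both the highest value of all 24, in restricted_9085, and the lowest, in restricted_2820. PCNA in omental cells was at 4.77, 5.22, 5.16 and 5.20 in the controls and at 5.08, 5.35, 4.70 and 4.82 in the restricted fetuses. Its abdominal values were 5.11, 4.97, 5.41 and 5.71, then 6.02, 5.26, 4.94 and 4.90. Its femoral values were 4.63, 5.30, 5.48 and 5.59, then 5.65, 5.15, 4.95 and 5.18. The depots overlapped widely for PCNA.

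Among the mitosis genes, TOP2A in omental cells was at 8.72, 8.88, 8.95 and 7.54 in the controls and at 8.08, 9.59, 8.86 and 9.29 in the restricted fetuses. Its abdominal values were 8.30, 9.49, 9.22 and 9.98, then 9.78, 9.31, 9.51 and 9.04. Its femoral values were 8.48, 9.05, 9.02 and 9.45, then 8.58, 9.38, 9.75 and 8.88. The lowest TOP2A value, in omental cells of control_8009, and the highest, in abdominal cells, came from the same fetus. CDK1, the kinase that drives entry into mitosis, was at 8.98, 9.36, 9.32 and 8.14 in the omental cells of the controls and at 8.41, 9.77, 9.32 and 9.67 in those of the restricted fetuses. Its abdominal values were 8.57, 9.76, 9.47 and 9.75, then 9.98, 9.64, 9.70 and 9.37. Its femoral values were 8.67, 9.40, 9.18 and 9.51, then 8.93, 9.71, 9.90 and 9.28. CDK1 followed TOP2A: control_8009 was lowest in omental cells, control_9017 was lowest in abdominal and femoral cells, and restricted_9075 was highest in femoral cells. Over the whole set, restricted_9075 had the highest femoral value in 17 of 17 mitosis genes, and control_9017 had the lowest abdominal value in 14 of 17.

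**Figure D3:**
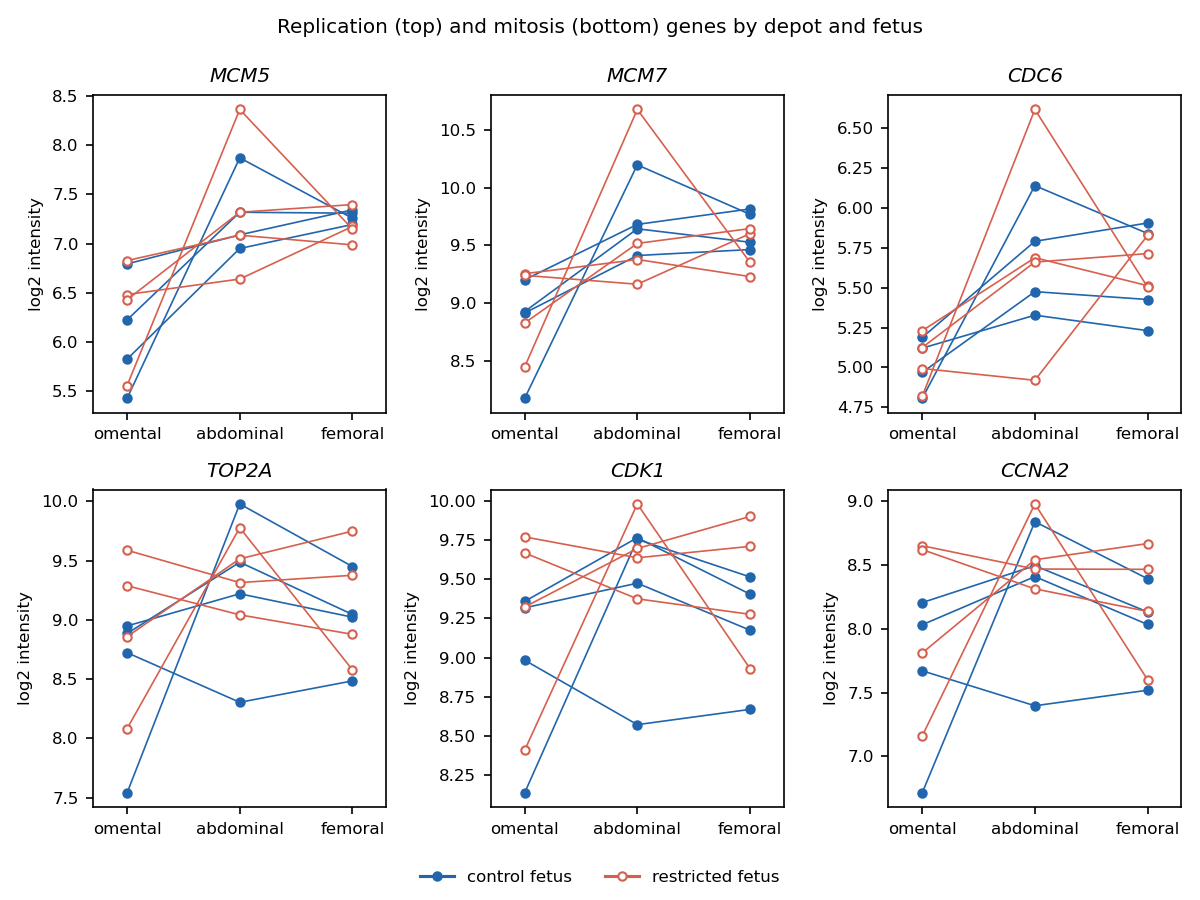
Log2 intensity of 3 replication genes (MCM5, MCM7 and CDC6, top) and 3 mitosis genes (TOP2A, CDK1 and CCNA2, bottom) in the 3 depots; each line is 1 of 8 fetuses, filled for control and open for restricted. In the top panels omental values lie at the lower end in most fetuses, and in the bottom panels lines run both up and down from omental to abdominal cells.

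Between abdominal and femoral cells none of the 30 genes passed the test, where 0.0768% of all probes (13) were called, and 708 probes had an unadjusted p under 0.05. All 30 differences were nevertheless positive, that is higher in abdominal cells, with a median of 0.10 for replication and 0.26 for mitosis genes and of 0.0017 over all probes. Without restricted_9085 the replication median was -0.0084. TK1 had the smallest p, at 0.44 ± 0.19 (SE; adjusted p = 1.00), and was the 1 member with an unadjusted p under 0.05. It was higher in 7 of 8 fetuses. RRM1 stood at 0.092 and MCM7 at 0.16. Among mitosis genes, CCNB2, a B-type cyclin, stood at 0.33 ± 0.17 (SE), the Polo kinase gene PLK1 at 0.25 ± 0.13 and CENPA, the centromeric histone, at 0.35 ± 0.20. TYMS was higher in abdominal cells of all 8 fetuses, which held upward for 0.661% of all probes, at 0.19 ± 0.66 (SE). This SE holds the spread between fetuses, since the fit had no term for the fetus.

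The diet comparison asked whether restriction of the mother changed these genes within a depot. No member passed the test in omental, abdominal or femoral cells or on the means of each fetus over its depots. The background leaves little room for calls: 0% of probes were called within each depot and 0.00591% (1 probe) on fetus means. Without adjustment, 804, 824, 1050 and 1051 probes had a p under 0.05 in these 4 comparisons, among them 1 member, CDT1 in femoral cells.

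The mitosis genes lay on one side in most comparisons, without any call. In omental cells 16 of 17 were higher in restricted fetuses, with a median difference of 0.30 against -0.0074 over all probes. In femoral cells 16 of 17 were higher (median 0.20), in abdominal cells 13 of 17 (median 0.11), and on fetus means 16 of 17 (median 0.20). The gene with a negative difference in omental and femoral cells and on fetus means was AURKA, whose second probe stood at -0.044, 0.25 and 0.11. Of the 13 replication genes, 9 were higher in restricted fetuses in omental cells (median 0.075), 7 in abdominal cells (0.038), 3 in femoral cells (-0.078) and 7 on fetus means (0.027).

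These medians moved with single fetuses. In omental cells the mitosis median was 0.040 without control_8009 and 0.60 without restricted_9085. In abdominal cells it was -0.18 without control_9017, and -0.27 in female fetuses alone. In femoral cells it ranged from -0.0044 to 0.40 over the omissions of 1 fetus, and on fetus means from 0.087 to 0.35. The replication medians turned sign in omental and abdominal cells and on fetus means, but not in femoral cells (-0.14 to -0.037 over the omissions). In omental cells the replication median ran from -0.060, without control_8009, to 0.21 over the omissions of 1 fetus. In abdominal cells it was -0.27 without restricted_9085 and -0.38 in females alone, and on fetus means it was -0.076 without control_9017. The genes of a set share their arrays and are not separate observations.

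UBE2C, which helps to mark mitotic proteins for destruction, shows the spread behind these medians. In omental cells it was at 8.53, 9.11, 9.58 and 7.91 in the controls and at 7.98, 10.05, 9.38 and 9.52 in the restricted fetuses, a difference of 0.45 ± 0.46 (SE). In femoral cells it was at 8.44, 9.16, 8.99 and 9.46, then 8.67, 9.60, 10.23 and 8.99, a difference of 0.36 ± 0.33 (SE; adjusted p = 0.894). The groups overlapped in both depots, and restricted_9085 lay near the lowest controls.

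In omental cells the smallest p-values among mitosis genes were those of TPX2, a spindle assembly factor, at 0.42 ± 0.29 (SE), KIF11 at 0.31 ± 0.25 and BUB1B at 0.13 ± 0.11, each with an adjusted p of 0.981. Among replication genes they were those of GINS2 at -0.29 ± 0.19 (SE), MCM6 at -0.16 ± 0.15 and RRM1 at 0.12 ± 0.15, which turned to -0.015 under median scaling. The summed level of the 4 tested epithelial markers (EPCAM, CDH1, KRT14 and CLDN4) in omental cells ran from 227 to 240 in controls and from 291 to 334 in restricted fetuses, with 0 of 4 called. Its part in the values above was not tested.

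In abdominal cells AURKB stood at 0.29 ± 0.27 (SE), CDK1 at 0.28 ± 0.26 and CCNA2 at 0.29 ± 0.29. In female fetuses alone the same genes stood at -0.10, -0.095 and -0.14. TK1 stood at 0.20 ± 0.27 (SE) and turned to -0.21 in females alone; TYMS stood at 0.53 ± 0.88 and MCM2 at -0.16 ± 0.30. The 5 tested mesothelial markers summed to 162 to 221 in control and 247 to 456 in restricted abdominal cells, with 0 of 5 called. Their part in these values was not tested.

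In femoral cells CDT1 was at 6.31, 6.35, 6.54 and 6.36 in control_9017, control_9087, control_8011 and control_8009 and at 5.92, 6.28, 5.82 and 6.23 in restricted_9085, restricted_2820, restricted_9075 and restricted_9073. The groups did not overlap, which was so for 1 of 30 members and for 3.89% of all probes. In this direction it was so for 2.20% of all probes. The difference was -0.33 ± 0.12 (SE) and did not pass (adjusted p = 0.780). In omental and abdominal cells CDT1 stood at 0.14 ± 0.35 and -0.012 ± 0.38 (SE), and there and on fetus means 0 of 30 members had groups apart, where 2.82%, 3.14% and 3.59% of all probes did. MCM7 at -0.19 ± 0.13 (SE) and GINS2 at -0.12 ± 0.12 followed CDT1 in order of p in femoral cells. Among mitosis genes these were AURKB at 0.27 ± 0.23 (SE), CDK1 at 0.26 ± 0.24 and UBE2C.

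On fetus means AURKB stood at 0.30 ± 0.17 (SE; adjusted p = 0.830), CCNA2 at 0.30 ± 0.18 (0.836) and CDK1 at 0.30 ± 0.18 (0.839). GINS2 stood at -0.15 ± 0.10 (SE), MCM6 at -0.13 ± 0.12 and MCM4 at 0.079 ± 0.11. With 4 fetuses a group, differences of this size lay within about 2 standard errors.

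**Figure D4:**
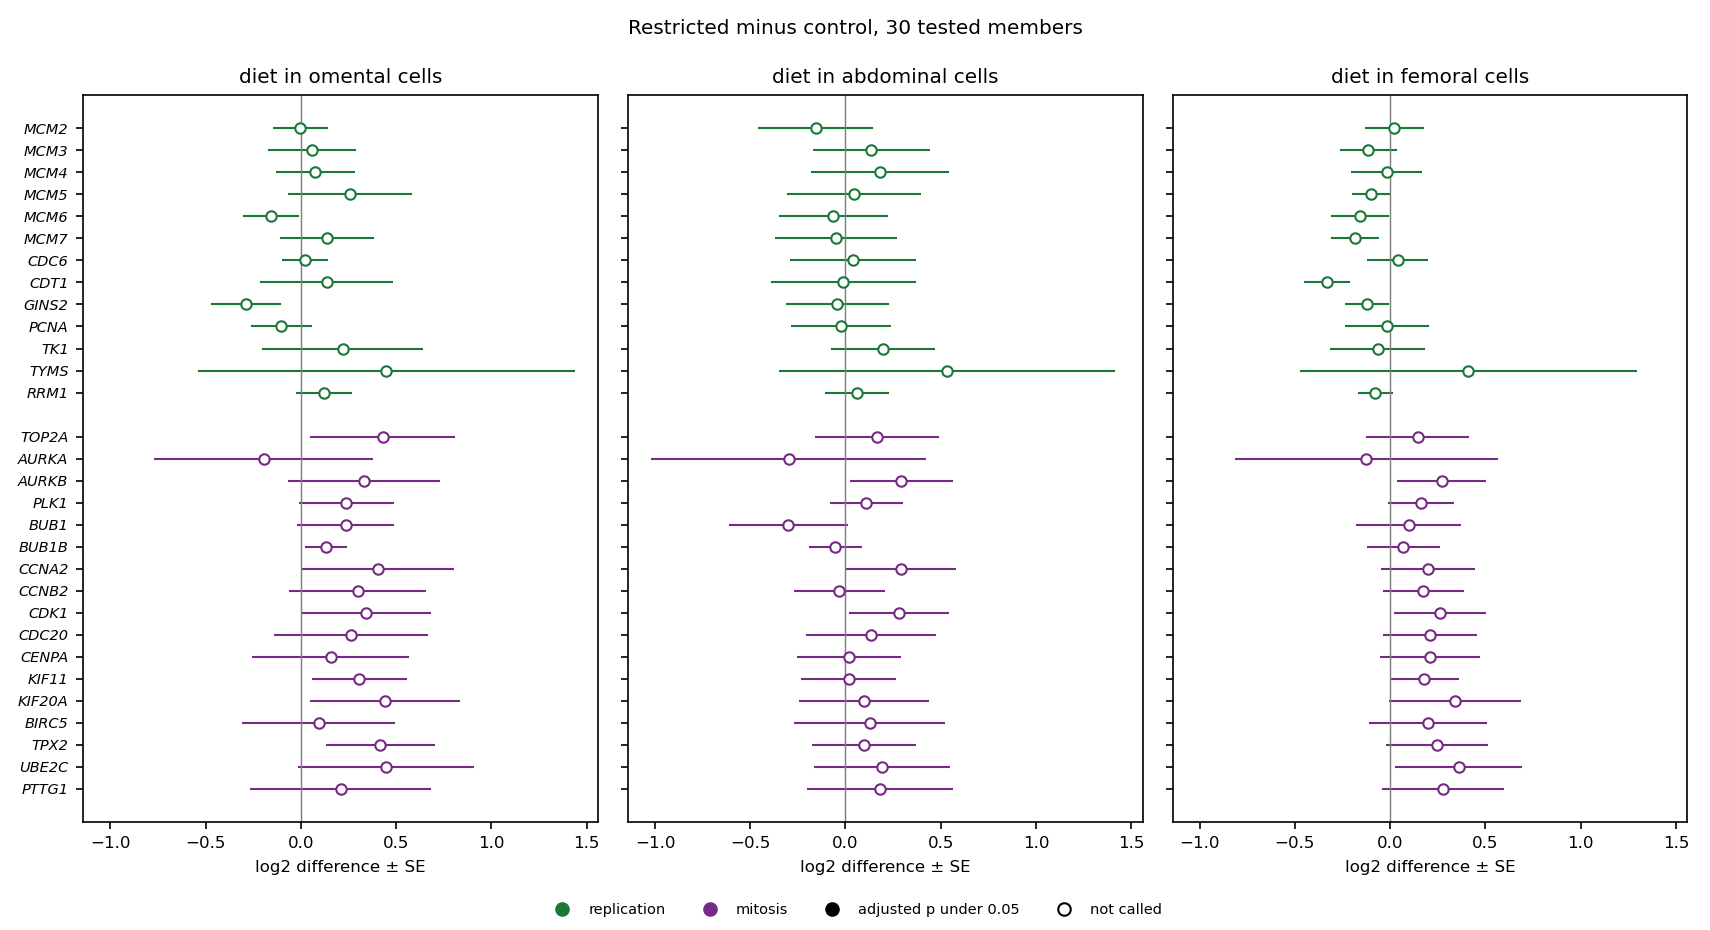
Log2 difference of restricted minus control fetuses in omental, abdominal and femoral cells for the 30 tested genes, with bars of 1 SE over 4 against 4 arrays; no point has an adjusted p under 0.05. Mitosis genes (purple) lie to the right of 0 in 16, 13 and 16 of 17 cases with wide bars, and CDT1 is the replication gene farthest left in the femoral panel.

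The difference of the diet differences between depots was tested for each probe. None of the 16933 probes passed in any of the 3 pairs of depots (0%), and 330, 392 and 322 had an unadjusted p under 0.05, none of them a member. For omental minus abdominal cells, BUB1 stood at 0.54 ± 0.43 (SE), BUB1B at 0.19 ± 0.18 and KIF11 at 0.29 ± 0.38, and GINS2 at -0.24 ± 0.35, MCM7 at 0.19 ± 0.43 and MCM2 at 0.15 ± 0.36. For omental minus femoral cells, CDT1 stood at 0.47 ± 0.40 (SE), RRM1 at 0.20 ± 0.18, MCM7 at 0.32 ± 0.29, TOP2A at 0.29 ± 0.51, TPX2 at 0.17 ± 0.43 and CCNA2 at 0.21 ± 0.51. For abdominal minus femoral cells, CDT1 stood at 0.32 ± 0.43 (SE), RRM1 at 0.14 ± 0.19, MCM3 at 0.25 ± 0.37, BUB1 at -0.40 ± 0.45, CCNB2 at -0.21 ± 0.34 and KIF11 at -0.16 ± 0.33. Each of these values lay within 2 standard errors of 0.

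TYMS and AURKA stood apart in how widely the fetuses differed. TYMS, with its smaller differences between depots given above, was at 9.64, 9.86 and 9.57 in the omental, abdominal and femoral cells of control_8011. It was at 8.24, 8.90 and 8.81 in restricted_9075 and at 8.92, 8.97 and 8.91 in restricted_9073. In the other 5 fetuses it ran from 5.63 to 6.84 over all depots. High TYMS thus occurred in 1 control and 2 restricted fetuses, and no value lay between 6.84 and 8.24. TYMS had 1 probe on the array, so no second probe could be set beside it.

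AURKA, which encodes the Aurora kinase of the spindle poles, was low in a single fetus. In restricted_2820 it was at 5.21, 5.02 and 4.88 in omental, abdominal and femoral cells. In the other 7 fetuses it ran from 6.97 to 8.74. The second AURKA probe, detected on 16 arrays, was lowest in the same fetus, at 4.36, 4.37 and 4.33, against 4.50 to 6.05 elsewhere. The diet difference of AURKA was -0.19 in omental and -0.13 in femoral cells, the opposite side from the other 16 mitosis genes there, but the second probe did not share this side in femoral cells (0.25). Its close partner TPX2 was not low in restricted_2820, which had the highest omental TPX2 value, 7.50, and the second lowest abdominal one, 6.58. Macrophage markers were highest in the abdominal cells of the same fetus, where CD14, CD68 and LYZ summed to 1107, and PTPRC, CSF1R and CD163 were detected on no array; their part in its values was not tested.

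**Figure D5:**
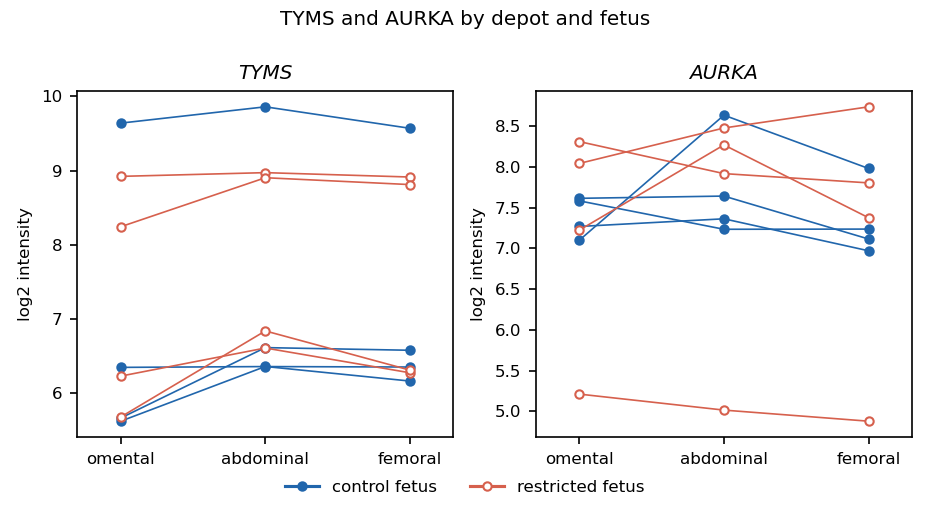
Log2 intensity of TYMS (left) and AURKA (right) in the 3 depots; each line is 1 of 8 fetuses, filled for control and open for restricted. TYMS forms 3 lines above 8.2 and 5 below 6.9, and AURKA has 1 line, that of restricted_2820, near 5 with all others above 6.9.

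Further genes of these pathways were read from lists drawn up by function, though with earlier results known. Of 35 other replication genes, 25 were tested, and 23 of 25 were lower in omental than in abdominal cells, with a median of -0.21. The origin recognition gene ORC1 was the 1 of 25 that passed, at -0.47 (adjusted p = 0.0322), where 2.13% of all probes were called lower. Against femoral cells 21 of 25 were lower (median -0.15) and 4 passed, where 5.60% of all probes were called lower: ORC1 at -0.34 (adjusted p = 0.00252), the chromatin assembly gene CHAF1B at -0.53 (0.0291), and the genes for maintenance DNA methylation, DNMT1 at -0.22 (0.0339) and UHRF1 at -0.55 (0.0280). Of 47 other mitosis genes, 37 were tested: 36 of 37 were lower than in abdominal cells (median -0.29) with none called. Against femoral cells 26 of 37 were lower (median -0.093) and 1 passed, the condensin gene SMC4, at -0.24 (adjusted p = 0.0309), a share below that of all probes. By diet the other mitosis genes were higher in restricted fetuses in 34, 34 and 30 of 37 cases in omental, abdominal and femoral cells (medians 0.22, 0.13 and 0.14), again with no call.

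Of 22 cell cycle regulators 13 were tested, and 1 passed: CCND1, the cyclin that carries cells out of rest, was lower in omental than in femoral cells at -0.43 (adjusted p = 0.0288), a share near that of all probes. Among 18 genes listed as brakes on the cycle 14 were tested. Against abdominal cells 1 was called higher and 2 lower, where 4.62% of all probes were called. Against femoral cells 2 were called higher and 2 lower, where 10.9% of all probes were called. CDKN1C, which encodes the CDK inhibitor p57, was higher in omental cells of all 8 fetuses, by 1.88 against abdominal (adjusted p = 0.00164) and by 1.88 against femoral cells (2.71e-05). CDKN2B, another CDK inhibitor gene, was higher than in femoral cells, by 0.87 (adjusted p = 0.0315). The antiproliferative genes BTG1 and TOB1 went the other way, lower in all 8 fetuses, at -0.73 and -0.43 against abdominal (adjusted p = 0.00289 and 0.00232) and at -1.11 and -0.39 against femoral cells (3.47e-05 and 0.00172). GADD45B was higher in all 8 fetuses in both comparisons, and GAS1 lower in all 8 against abdominal cells, without passing. Of all 16933 probes, 709 were higher and 709 lower in all 8 fetuses against abdominal cells, and 912 and 959 against femoral cells. The brakes thus did not share a direction. CDKN1A stood at 0.043 and -0.0084 in the same comparisons.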

How the data were processed

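RNA from 24 cultures was read on single-channel Illumina human arrays. The values used are the probe intensities that the authors deposited, background-subtracted per the file headers, with a detection p-value per probe; between 32.0% and 37.7% were below 0. The authors' deposited series matrix (normalised intensities, turned to log2 here) was an alternative. Intensities were corrected and quantile-normalised with neqc in limma 3.58.1 (R 4.3.3; offset 16), and probes with a detection p below 0.05 on at least 4 arrays were kept. Probes were named by the platform annotation: 28098 carried 1 symbol, 13 several and 20692 none.

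Diet was tested in each depot and on fetus means, depots with diet as covariate, and their interaction, with lmFit and eBayes and Benjamini-Hochberg adjustment over 16933 probes (threshold 0.05). Each comparison names the called members and, of each class, the 3 with the smallest p, and MCM2, PCNA, TOP2A and CDK1 array by array. Members and lists were chosen with earlier results of these data known. Arrays of 1 fetus pair across depots: their deviations from group means correlated at r = 0.280 to 0.673 in all 24 pairs. The main depot and interaction fits held no term for the fetus, so their SEs and p-values treat these arrays as independent. The fit was run on simulated data in which the arrays of a fetus were independent, so the simulation did not check the pairing. Alternatives covered the offset, background correction, scaling, filter, probes, sex, fetus as block and each fetus left out. The number of arrays limits the precision. Sequences are not used here.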

Additional observations from a re-analysis of the deposited data

Results flagged for a closer look

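Of 180 groups of 4 arrays (30 genes, 6 groups), 14 held an array whose gap to the nearest other exceeded Dixon's critical value, where chance gives about 1 in 20 groups. The genes of 1 array move together, so these are not separate events. In abdominal cells of control_9017, BUB1 (5.09), KIF20A (6.67) and PTTG1 (9.17) were low against the other 3 controls. In omental cells of control_8009, RRM1 (9.65) and TOP2A (7.54) were low, and in its abdominal cells MCM4 (8.65) was high. In restricted_9085, TK1 (7.15) and BIRC5 (5.53) were low in omental cells and GINS2 (6.64) was high in abdominal cells. TYMS was high in control_8011, at 9.86 in abdominal and 9.57 in femoral cells. In abdominal cells of restricted_2820, AURKA (5.02) and CENPA (6.35) were low. PCNA (4.77) was low in omental cells of control_9017.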

How the results depend on the processing

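With the fetus as a block, which the pairing allows, 5 members passed for omental against abdominal cells, where 9.62% of all probes were called. For omental against femoral cells 10 members passed, where 15.6% of all probes were called, and for the others 0. Beyond MCM4, MCM7, TYMS and CDT1, given above, the block changed no call of the members. For omental against abdominal cells the count of 6 became 3 with an offset of 50, 2 without background correction, 2 with the series matrix, 0 without a filter, where all probes enter the adjustment, 0 in female fetuses alone and 0 without both control_8009 and restricted_9085, and lay between 0 and 6 with 1 fetus left out. The share of all probes called moved from 4.62% to 4.20%, 2.94%, 2.94%, 0.807%, 1.35% and 0.874% in the same order. It lay between 2.04% and 5.47% with 1 fetus left out. CDC6, at -0.67, became -0.38 with an offset of 50 and -0.98 without background correction. For omental against femoral cells the count of 9 became 4 without both of these fetuses (5.22% of all probes). With 1 fetus left out the count lay between 6 and 10, where 7.74% to 12.9% of all probes were called. It became 6 in female fetuses alone, 7 without a filter, 8 without background correction, 8 with the series matrix and 10 with median scaling. The share of all probes called moved from 10.9% to 6.25%, 2.78%, 8.55%, 8.55% and 9.78% in that order. Among probes detected on all 24 arrays the count was 8, where 13.9% of probes were called. The replication median by diet on fetus means was -0.12 in females alone. In all other depot, diet and interaction comparisons the count was 0 under every alternative run.

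Directions turned for these uncalled values; the cause was not tested. Under median scaling RRM1 by diet in omental cells was -0.015. In females alone, by diet in abdominal cells, TK1 was -0.21, AURKB -0.10, CDK1 -0.095 and CCNA2 -0.14. Also in females alone, MCM4 on fetus means was -0.059, MCM7 for abdominal against femoral cells -0.0012, and the interactions of GINS2 0.27 (omental, abdominal), CDT1 -0.26, RRM1 -0.0059 and MCM3 -0.051 (abdominal, femoral). Without control_8009 and restricted_9085, RRM1 was -0.0074 and MCM7 -0.081 for abdominal against femoral cells, and the interactions for omental and femoral cells were -0.091 for TOP2A, -0.054 for TPX2 and -0.14 for CCNA2. With 1 fetus left out, the diet differences in abdominal cells ran from -0.015 to 0.38 for TK1, -0.45 to 0.049 for MCM2 and -0.0056 to 0.47 for CCNA2. Those of MCM4 on fetus means ran from -0.014 to 0.15, and MCM7 for abdominal against femoral cells from -0.0084 to 0.24. The omental and abdominal interactions ran from -0.50 to 0.13 for GINS2, -0.18 to 0.68 for MCM7, -0.086 to 0.55 for MCM2 and -0.0073 to 0.62 for KIF11. The omental and femoral interactions ran from -0.19 to 0.52 for TOP2A, -0.091 to 0.44 for TPX2 and -0.23 to 0.44 for CCNA2. The abdominal and femoral interactions ran from -0.12 to 0.51 for CDT1 and -0.046 to 0.42 for MCM3.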
